A study of Mus musculus with 9 samples.

Results

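Potassium channel genes were examined in laser-captured motor neurons (MNs) of 3 hindlimb MN pools that differ in their vulnerability to spinal muscular atrophy. The members were the transcript clusters, the probe groups that stand for 1 transcript unit on the array, whose single gene symbol begins with Kcn. They comprise 91 genes, 90 protein-coding and the long non-coding RNA Kcnq1ot1, of 30176 named genes on the array, and each was measured by 1 cluster.

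RNA came from 9 wild-type FVB mice of a single litter, untreated apart from the tracer. At postnatal day 14, WGA, a plant lectin carried back from axon terminals to the MN soma, was injected on both sides into a single muscle of each mouse, and the cords were collected 48 h later. The extensor digitorum longus (EDL, resistant) received 1 µl and the gastrocnemius (GS, intermediate) and tibialis anterior (TA, vulnerable) 3 µl, in 3 mice each. Each mouse gave 1 array, so that replicate error here is the spread among mice, and their number limits the precision. The sources differ on the tissue: 35 µm sections in the methods and lumbar MNs in the paper, but 20 µm cervical sections in the labels and an SMA background in the design text. The TA mice carry the numbers 0, 1 and 3 and the other mice the numbers 11, 13, 14, 30, 31 and 33, and a batch that runs along these numbers cannot be told apart from the TA pool.

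Potassium channels let K+ leave a neuron and so set its resting potential, end its action potentials and limit its firing rate. Voltage-gated (Kv) channels are tetramers of pore-forming alpha subunits, to which beta, KChIP or MinK-related subunits attach. Calcium- and sodium-activated channels shape the afterhyperpolarisation that follows each spike, inward rectifiers hold the membrane near rest or answer to G proteins, and leak channels with a pair of pore domains carry a steady current. MNs are known for a large afterhyperpolarisation carried by SK channels, for leak currents of the TASK type and for Kv1 channels next to the nodes of Ranvier and on the initial segment.

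Signal is given in log2 units. The negative control probe sets, which should bind no mouse transcript, set a floor: 38 of the 91 genes had a mean over the 9 arrays above the mean 75th percentile of these controls (7.65), and the other 53 lay near it. Just above were Kcna6 (7.94), Kcnj16 (7.74) and Kcnk10 (7.70), and just below Kcnk13 (7.58), Kcnj9 (7.50) and Kcnn1 (7.43). Many low clusters held the same value on several arrays: 17 genes had an identical value on 5 or more of the 9 arrays, 16 of them near the controls. The signal of 1 cluster cannot be set against that of another, because probes bind with different strength, so levels are compared between pools only. In bulk captures, fewer cells of a type and less RNA per cell cannot be told apart.

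Arrays of the TA pool differed from the rest in quality. The area under the curve that separates positive from negative control probe sets was 0.844 to 0.854 in EDL, 0.831 to 0.838 in GS and 0.779, 0.778 and 0.828 in TA mice 0, 1 and 3, and the median of the negative controls ran from 5.98 to 6.18 in EDL and GS and from 6.27 to 6.48 in TA. The MN markers Chat, Slc18a3, Slc5a7, Isl1 and Prph lay above the controls and Isl2 and Mnx1 near them, and of the 7 markers none passed the test in any comparison. The summed signal of these 7 markers (log2 of the sum) ran from 16.02 to 16.30 in EDL, from 15.67 to 15.85 in GS and from 14.91 to 15.94 in TA. This sum is carried by the brightest probes. The mean over the same markers ran from 11.08 to 11.38 in EDL, 11.06 to 11.10 in GS and 10.22 to 11.07 in TA. In this mean EDL and GS overlapped. Isl1 had a mean of 8.62 in EDL and 9.30 in GS, and its values overlapped. For Chat, Slc18a3, Slc5a7 and Prph, EDL lay above GS without overlap, by 0.26, 0.61, 0.48 and 0.46. Isl2 and Mnx1 differed by -0.01 and 0.07 between EDL and GS. Transcripts of other cells were present: all 5 measured oligodendrocyte markers, 3 of 5 astrocyte, 5 of 6 endothelial or pericyte, 2 of 5 interneuron and 1 of 6 microglial markers lay above the controls. Of the endothelial and pericyte markers, Cldn5, a tight junction gene of endothelium, passed between EDL and TA at a difference of 1.27 (limma adjusted p = 0.0331), while the median over the 6 was -0.46.

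Between the resistant and the vulnerable pool, 3 potassium channel genes passed the test, which does not show that the others had equal levels. The potassium channel of the axon Kcna2 (Kv1.2) and the pore of the BK channel, Kcnma1, were lower in EDL than in TA, by 1.36-fold and 1.28-fold, and the neuronal BK accessory subunit Kcnmb4 was higher in EDL by 1.60-fold. These 3 of 91 genes (3.30%) passed an adjusted p under 0.05 in limma, beside a background of 5.08% of all 65956 clusters (2.86% higher and 2.22% lower in EDL). At an unadjusted p under 0.05 there were 17 (3 higher and 14 lower in EDL, 18.7%), beside 22.8% of all clusters (9.19% higher and 13.7% lower). The median difference was -0.01 over the 91 genes and -0.04 over all clusters, 70 genes lay within 0.2 of 0, and 6 lay beyond 0.5.

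**Figure D1:**
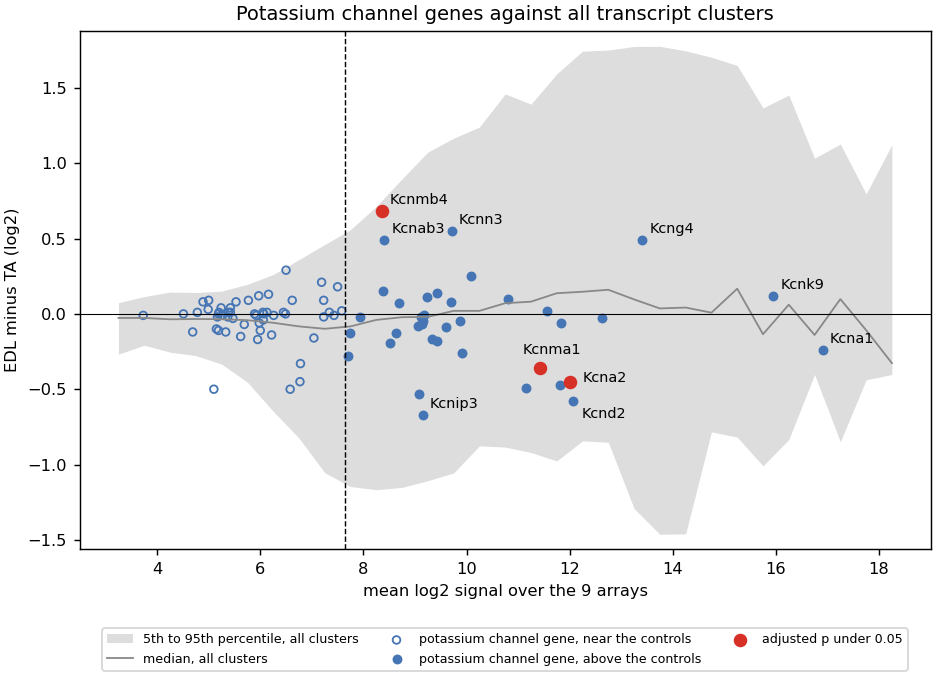
Difference between the EDL and TA means (log2) of the 91 potassium channel genes against their mean log2 signal over the 9 arrays. Filled points lie above the 75th percentile of the negative controls (dashed line, 7.65), open points near it, red points are Kcna2, Kcnma1 and Kcnmb4, which passed the test, and the grey band spans the 5th to 95th percentile of all clusters. Most open points sit close to 0, and no gene lies beyond -0.67 or 0.68.

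To show the starting regions of the genes that passed the test, their RefSeq promoters are printed (assembly GRCm38.p6, which was used for sequence and not for the array values), each 300 bases that span the transcription start, 5′ to 3′ on the strand of the gene, with the CG doublets in capitals. Kcna2 lies at chr3:107101317-107101616 on the plus strand, Kcnma1 at chr14:24004156-24004455 on the minus strand and Kcnmb4 at chr10:116473474-116473773 on the minus strand.
Kcna2: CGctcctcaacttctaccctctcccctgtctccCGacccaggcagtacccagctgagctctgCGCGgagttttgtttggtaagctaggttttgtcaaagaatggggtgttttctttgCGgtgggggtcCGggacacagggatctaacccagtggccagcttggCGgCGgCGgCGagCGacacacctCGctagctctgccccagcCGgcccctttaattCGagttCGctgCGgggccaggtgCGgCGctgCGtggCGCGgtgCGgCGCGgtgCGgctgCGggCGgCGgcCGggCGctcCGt
Kcnma1: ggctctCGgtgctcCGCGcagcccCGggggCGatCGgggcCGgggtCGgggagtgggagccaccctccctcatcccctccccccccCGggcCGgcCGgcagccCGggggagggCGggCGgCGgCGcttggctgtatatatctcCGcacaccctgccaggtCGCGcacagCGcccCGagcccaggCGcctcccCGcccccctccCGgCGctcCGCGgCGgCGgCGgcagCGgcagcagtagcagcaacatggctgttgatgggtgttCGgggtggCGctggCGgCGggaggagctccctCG
Kcnmb4: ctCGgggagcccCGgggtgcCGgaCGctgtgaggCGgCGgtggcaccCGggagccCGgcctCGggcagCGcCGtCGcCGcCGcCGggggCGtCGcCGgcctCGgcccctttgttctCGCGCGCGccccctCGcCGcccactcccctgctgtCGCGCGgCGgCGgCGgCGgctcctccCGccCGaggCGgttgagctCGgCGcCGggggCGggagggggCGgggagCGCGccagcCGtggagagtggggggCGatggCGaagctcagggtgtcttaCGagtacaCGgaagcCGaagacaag
CG reads the same on both strands. Kcna2 held 31 CG doublets, a number reached by 10.6% of the 32851 promoters in the table, Kcnma1 36 (6.23%) and Kcnmb4 48 (1.22%), against a median of 7 over all promoters and 9 over the 95 promoters of the 70 members that could be matched. The letters TATAAA, searched on both strands, were not in these windows.

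Kv1 channels assemble from Kcna subunits and sit beside the nodes and on the axon initial segment, where they damp excitability. Of 8 Kcna genes, 5 lay above the negative controls. The signal of Kcna2 was 11.81, 11.78 and 11.79 in EDL mice 11, 14 and 33, 11.96, 11.96 and 11.94 in GS mice 13, 30 and 31, and 12.13, 12.20 and 12.41 in TA mice 0, 1 and 3. The pools did not overlap and were ordered EDL, GS, TA, a pattern held by 1.01% of all clusters. The EDL-TA difference was -0.45 (SE 0.07, adjusted p = 0.0214), the GS-TA difference -0.29 (SE 0.07, adjusted p = 0.108) and the EDL-GS difference -0.16 (adjusted p = 1). With TA mice 0 and 1 left out, only TA mouse 3 remained, which had the highest Kcna2 value, and the EDL-TA difference was -0.61. Leaving out any 1 EDL mouse gave limma adjusted p-values between 0.0731 and 0.086 for this comparison, and leaving out GS mouse 30 gave 0.0506.

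Kcna1 (Kv1.1), which forms mixed channels with Kcna2, had 16.75, 16.82 and 16.83 in EDL, 16.88, 16.81 and 16.97 in GS and 16.89, 17.22 and 17.00 in TA. EDL lay below TA with no overlap, and GS overlapped both, but the difference of -0.24 (SE 0.09) did not pass (adjusted p = 0.165). For Kcna3, Kcna5 and Kcna6 the EDL-TA differences were 0.07, -0.08 and -0.02, with 95% intervals that include 0, and Kcna4, Kcna7 and Kcna10 lay near the controls.

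The cytoplasmic Kv beta subunits bind Kv1 channels and alter their inactivation and delivery. Kcnab3 was 8.36, 8.74 and 8.78 in EDL, 8.37, 8.63 and 8.32 in GS, and 8.13, 8.14 and 8.15 in TA. Both EDL and GS lay above TA with no overlap. The 75th percentile of the negative controls was 8.07, 8.17 and 7.71 on the arrays of TA mice 0, 1 and 3. The TA values of Kcnab3 thus lay near this floor, and that of mouse 1 below it. Its EDL-TA difference of 0.49 (SE 0.13) missed the threshold (adjusted p = 0.0699), and EDL and GS overlapped. Kcnab1 and Kcnab2 differed by -0.06 and 0.02 between EDL and TA, with 95% intervals that include 0.

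BK channels open on calcium and voltage together and speed the repolarisation of the spike. Kcnma1 encodes their only pore subunit, and Kcnmb4 the accessory beta subunit typical of neurons, which slows the gating of the channel. The signal of Kcnma1 was 11.38, 11.29 and 11.33 in EDL, 11.38, 11.29 and 11.12 in GS, and 11.62, 11.75 and 11.72 in TA. EDL and GS overlapped, and all TA values lay above both. The EDL-TA difference was -0.36 (SE 0.07, adjusted p = 0.0399) and the GS-TA difference -0.43 (SE 0.07, adjusted p = 0.0587).

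Kcnmb4 ran the other way, with 8.58, 8.70 and 8.76 in EDL, 8.34, 8.51 and 8.44 in GS, and 8.13, 7.66 and 8.23 in TA. The pools did not overlap and were ordered EDL, GS, TA from high to low, a pattern held by 2.03% of all clusters. The EDL-TA difference was 0.68 (SE 0.14, adjusted p = 0.044). The GS-TA difference was 0.43 (SE 0.14, adjusted p = 0.217) and the EDL-GS difference 0.25 (adjusted p = 1). TA mouse 1 was lowest, and its 7.66 lay below the 75th percentile of the negative controls on its own array (8.17). That percentile was 8.07 in TA mouse 0 and 7.71 in TA mouse 3, so the TA values of Kcnmb4 lay near or below this floor. Kcnmb1, Kcnmb2 and Kcnmb3 lay near the controls, at means from 5.69 to 6.07.

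The signal of Kcnma1 less that of Kcnmb4 on the same array, a quantity chosen after the values were seen and unaffected by a constant shift of an array, was 2.81, 2.59 and 2.57 in EDL, 3.04, 2.78 and 2.68 in GS and 3.49, 4.10 and 3.50 in TA. The pool means were 2.66 ± 0.13, 2.83 ± 0.19 and 3.70 ± 0.35 (SD, n = 3), and EDL and GS overlapped. Every TA value lay above every value of the other pools. That separation adds nothing to the single genes, because TA lay above both pools for Kcnma1 and below both for Kcnmb4. The size of this quantity has no meaning of its own, since different probes are involved, and no test was made.

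The 3 calls moved with the choice of fit. When each array was centred on its median, which adds 0.08 to every EDL-TA difference, Kcna2 had -0.36 (adjusted p = 0.0558) and Kcnma1 -0.28 (adjusted p = 0.114), and only Kcnmb4 passed. Centring on the negative controls, an alternative added after the data were seen, adds 0.35 and left Kcna2 at -0.10 and Kcnma1 at -0.01, while Kcnmb4 passed at 1.03. Without TA mice 0 and 1, which leaves 1 TA mouse, Kcnma1 had -0.39 and Kcnmb4 0.46. With 1 mouse left out, Kcnma1 passed only without GS mouse 31 or TA mouse 3 (limma adjusted p from 0.0368 to 0.137 over the 9 fits), and Kcnmb4 only without TA mouse 1 or TA mouse 3 (0.0132 to 0.145). Quantile normalization put Kcnma1 at -0.55. Array quality and the summed MN markers also differed between EDL and TA, by the values given above, and their part in these 3 differences was not tested.

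**Figure D2:**
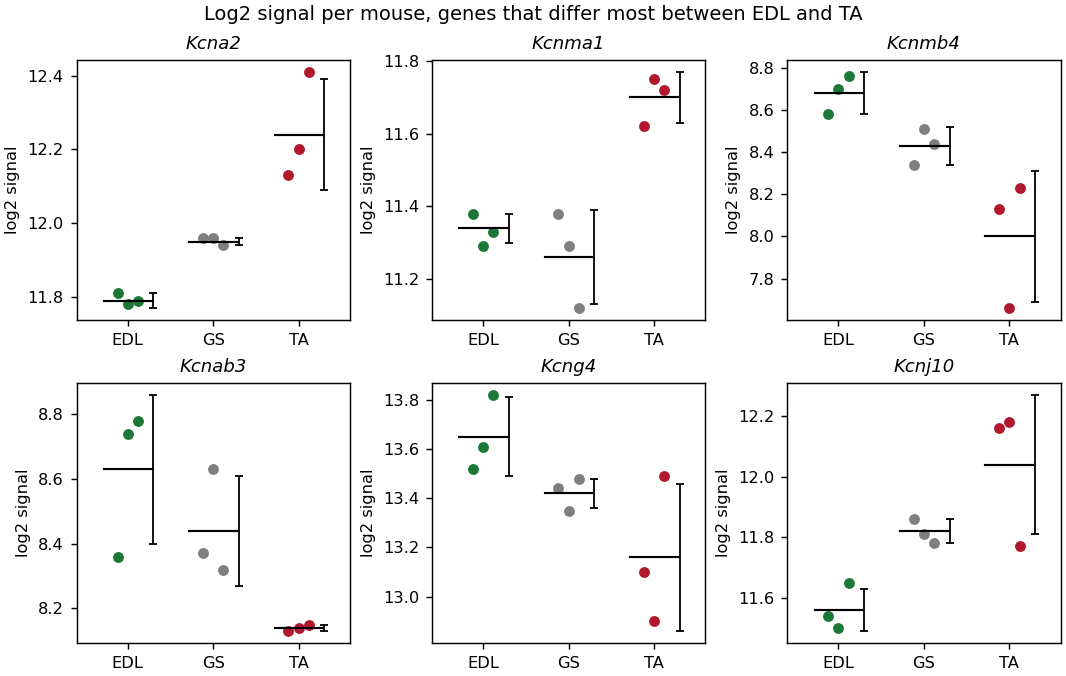
Log2 signal of 6 potassium channel genes in each mouse (points) of the EDL, GS and TA pools, with the pool mean (line) and SD (bar, n = 3). Each panel has its own axis that does not start at 0. Kcna2 and Kcnmb4 show 3 separate pools in opposite order, Kcnma1 shows TA above the other pools, and for Kcng4 and Kcnj10 the mouse 3 value of TA (13.49 and 11.77) lies among or next to the GS values.

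Among the other voltage-gated subunits, no gene passed the test between EDL and TA. Kcng4 (Kv6.4) forms no channel alone and modifies Kv2 channels. It was the 1 silent subunit of 10 above the controls, with 13.52, 13.61 and 13.82 in EDL, 13.44, 13.35 and 13.48 in GS, and 13.10, 12.90 and 13.49 in TA. EDL lay above both other pools without overlap, but TA mouse 3 lay above the GS mice, and the EDL-TA difference was 0.49 (SE 0.15, adjusted p = 0.109). Without TA mouse 3 it was 0.65 (adjusted p = 0.00917), and without TA mice 0 and 1, which leaves 1 TA mouse, it was 0.16. Kcnb2 (Kv2.2), a partner of such subunits, differed by -0.09 (SE 0.08).

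Kv3 channels repolarise fast-firing neurons. Kcnc1 (Kv3.1) had 9.08, 9.22 and 9.25 in EDL, 9.45, 9.40 and 9.51 in GS, and 9.33, 9.33 and 9.40 in TA. EDL lay below both other pools without overlap, by -0.17 from TA (SE 0.06, adjusted p = 0.132) and by -0.27 from GS (SE 0.06, unadjusted p = 0.00182, adjusted p = 1). Kcnc4 (Kv3.4) differed by -0.03 between EDL and TA (95% interval -0.38 to 0.31).

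The A-type channel gene Kcnd2 (Kv4.2), whose current delays firing, was 12.04, 11.76 and 11.72 in EDL, 11.98, 12.03 and 11.73 in GS and 13.17, 11.98 and 12.11 in TA. TA mouse 0 stood above the rest and the pools overlapped, so the difference of -0.58 (SE 0.30) did not pass (adjusted p = 0.295). The KChIPs are calcium-binding partners of Kv4. Kcnip3, also known as the transcriptional repressor DREAM, had 8.60, 8.69 and 9.08 in EDL, 9.31, 9.10 and 9.21 in GS, and 9.65, 9.81 and 8.92 in TA, with TA mouse 3 inside the range of EDL (difference -0.67, SE 0.23, adjusted p = 0.146). Without TA mouse 3 it was -0.94 (adjusted p = 0.00893), and without TA mice 0 and 1, which leaves 1 TA mouse, it was -0.13. For Kcnip4 the difference was 0.25 (SE 0.14, adjusted p = 0.339), and the accessory subunit Kcne1l differed by -0.01.

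The M-current genes Kcnq3 and Kcnq5, which restrain repetitive firing, differed by -0.02 (95% interval -0.27 to 0.23) and -0.07 (95% interval -0.24 to 0.10) between EDL and TA. Kcnq1ot1, transcribed antisense to Kcnq1 and known for imprinting of that locus, was 8.84, 9.01 and 8.69 in EDL, 8.82, 9.16 and 9.03 in GS and 9.06, 9.97 and 9.11 in TA. TA mouse 1 set most of its difference of -0.53 (SE 0.24, adjusted p = 0.241).

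The SK channels carry the medium afterhyperpolarisation of MNs. Kcnn3 (SK3), found in small slow MNs in rodents, spread from 9.34 to 10.44 within EDL, from 9.55 to 9.84 in GS and from 9.08 to 9.81 in TA, so that its difference of 0.55 (SE 0.30) did not pass (adjusted p = 0.33). Kcnn2 (SK2) was 8.43, 8.45 and 8.41 in EDL, 8.49, 8.48 and 8.45 in GS and 8.47, 8.77 and 8.62 in TA. EDL lay below TA without overlap, at a difference of -0.19 (SE 0.07, adjusted p = 0.186). The sodium-activated channel gene Kcnt1 (Slack) had 9.74, 9.88 and 9.84 in EDL and 9.88, 10.17 and 10.19 in TA, with 1 shared value at this rounding (difference -0.26, SE 0.09, adjusted p = 0.145).

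The TASK leak channels, which are closed by transmitters that excite MNs, did not pass. Kcnk9 (TASK-3) was 16.08, 16.00 and 16.04 in EDL, 16.05, 15.75 and 15.87 in GS and 15.73, 15.87 and 16.16 in TA, and the pools overlapped (EDL-TA difference 0.12, 95% interval -0.16 to 0.39). Kcnk3 (TASK-1) differed by 0.11 (95% interval -0.06 to 0.28), and Kcnk4 (TRAAK), a mechanically gated leak channel found at nodes of Ranvier, by 0.15 (adjusted p = 0.287). A p that misses the threshold does not show equal levels, and these intervals leave room for differences of up to 0.39.

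Among inward rectifiers, Kcnj10 (Kir4.1) buffers extracellular K+ and is expressed mainly by astrocytes and oligodendrocytes. It had 11.54, 11.50 and 11.65 in EDL, 11.86, 11.81 and 11.78 in GS, and 12.16, 12.18 and 11.77 in TA. EDL lay below both other pools without overlap and TA mouse 3 fell just under the GS mice. The EDL-TA difference of -0.47 (SE 0.11) missed the threshold (adjusted p = 0.0526), and without TA mouse 3 it was -0.60 (adjusted p = 0.00102). Without TA mice 0 and 1, which leaves 1 TA mouse, it was -0.21. Of the 5 measured astrocyte markers, Slc1a2, the main astrocytic glutamate transporter, was lower in EDL than in TA by -0.43 (adjusted p = 0.0438). Gfap was the only marker of the 5 that was higher in EDL, by 0.30 (adjusted p = 0.763). Aldh1l1 differed by -0.09, and Slc1a3 and Gja1, which lay near the controls, by -0.63 and -0.18. These 3 did not pass. The summed signal of the 5 markers (log2 of the sum) ran from 14.52 to 14.82 in EDL and 14.98 to 15.18 in TA, with the lowest GS array at 14.81, and that of the 5 oligodendrocyte markers from 16.38 to 16.47, 16.54 to 16.62 and 16.51 to 16.92. In both sums, which the brightest probes carry, EDL lay below TA without overlap, but in the means over the same markers the pools overlapped: the astrocyte mean ran from 9.30 to 9.68 in EDL and 9.56 to 9.98 in TA, and the oligodendrocyte mean of EDL (13.08 to 13.19) lay inside the TA range. The oligodendrocyte markers Mog and Cnp differed by 0.30 and 0.34, and Mbp, Mag and Mobp by -0.16, -0.26 and -0.50, and none of the 5 passed. Their part in the Kcnj10 difference was not tested. Of the other genes listed as glial or vascular channels, Kcnj16 differed by -0.13 and Kcnk1 by 0.08, and Kcnj8 and Kcne4 lay near the controls.

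**Figure D3:**
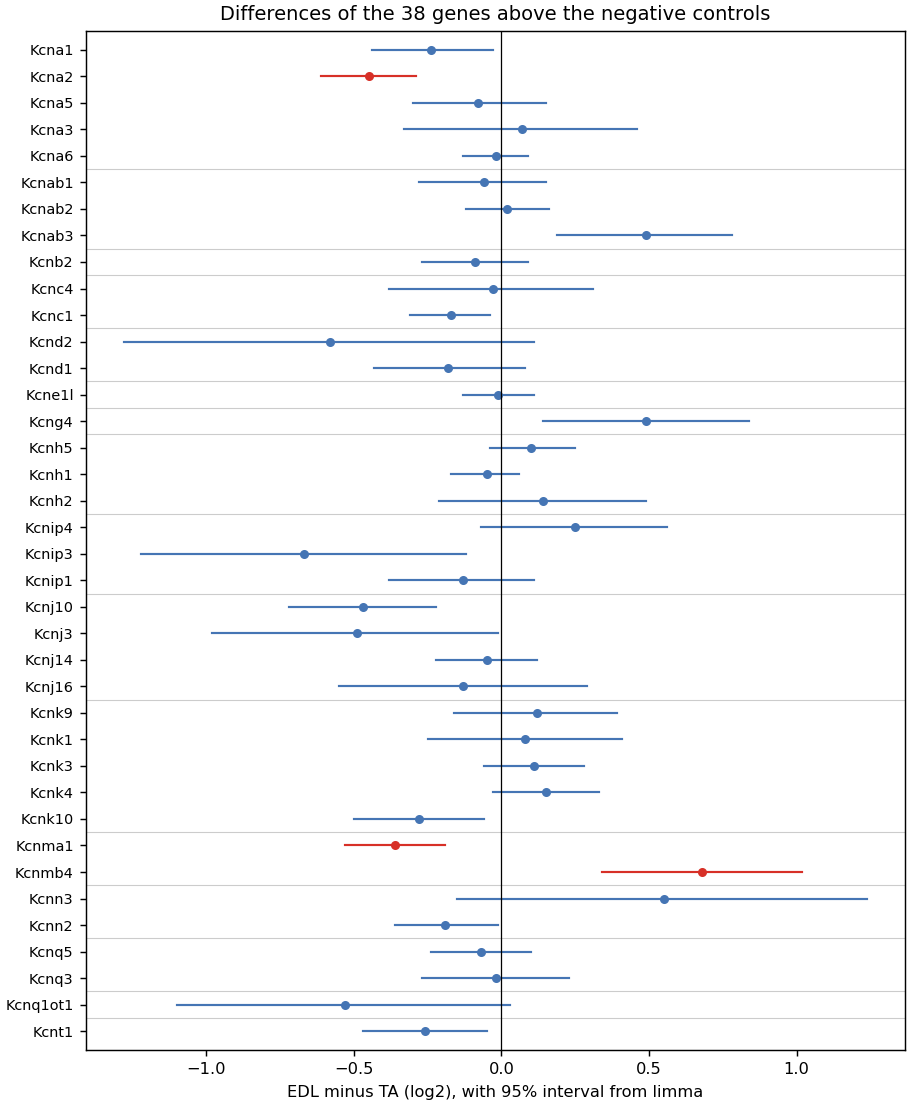
Difference between the EDL and TA means (log2, points) with the 95% interval from limma (lines) for the 38 genes above the negative controls, grouped by family with grey separators. Red marks Kcna2, Kcnma1 and Kcnmb4, which passed an adjusted p under 0.05, and the widest intervals belong to Kcnd2, Kcnn3, Kcnip3 and Kcnq1ot1.

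Over the 38 genes above the controls, 13 EDL-TA differences were positive and 25 negative, with a median of -0.06, beside -0.01 over all 16280 clusters above the controls. All 4 inward rectifiers in this group, and both genes of the Kv3, Kv4 and Kv7 families, had negative differences, and 4 of 5 leak channels positive ones. Apart from Kcna2, Kcnma1 and Kcnmb4 these signs belong to genes that did not pass. They also move with scaling: centring each array on its median puts the median over the 91 genes at 0.07 in place of -0.01. When the limma fit and the adjustment were both made over these 16280 clusters alone, 32.4% of the clusters passed. Of the 38 genes 6 passed: Kcna2, Kcnma1 and Kcnj10 lower and Kcnmb4, Kcnab3 and Kcng4 higher in EDL.

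Values of EDL and TA did not overlap at 18 genes, beside 23.8% of all clusters, 6 higher in EDL beside 9.23% of all clusters and 12 lower beside 14.5%. Trending through GS, meaning a GS mean between those of EDL and TA where these differed at an unadjusted p under 0.05, was seen at 3 genes higher in EDL (Kcng4, Kcnmb4 and Kcnab3) and 9 lower (Kcna1, Kcna2, Kcnip3, Kcnj2, Kcnj10, Kcnk10, Kcnn2, Kcnt1 and Kcne4, of which Kcnj2 and Kcne4 lay near the controls). The background was 8.16% of clusters higher and 11.8% lower.

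In GS against TA, no potassium channel gene passed, beside 0.634% of all clusters. The plain unmoderated test also called 0, and 14 genes had an unadjusted p under 0.05 in limma (5 higher and 9 lower in GS, 15.4%), beside 15.7% of all clusters (7.42% higher and 8.31% lower). The values of GS and TA did not overlap at 4 genes higher in GS, beside 7.53% of clusters, and 7 lower, beside 8.09%. The differences ran from -0.85 for Kcnj3 to 0.43 for Kcnmb4. In EDL against GS, 0 genes passed in limma or the plain test, beside 0.0% of all clusters, and 9 had an unadjusted p under 0.05 in limma (5 higher and 4 lower in EDL, 9.89%), beside 3.67% of all clusters (1.51% higher and 2.16% lower). Their values did not overlap at 5 genes higher in EDL, beside 5.18% of clusters, and 11 lower, beside 6.65%, and the differences ran from -0.51 to 0.49. The F test over the 3 pools called 0 of the 91, beside 1.59% of all clusters, with 15 (beside 17.4%) at an unadjusted p under 0.05. The plain F test called 0 as well, and Kcna2 and Kcnma1 came nearest in limma (adjusted p = 0.0503 and 0.0544).

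GS did not always lie between the other pools. Kcnh5 (Eag2), a Kv channel open at rather negative potentials, was 10.78, 10.77 and 10.78 in EDL, 11.06, 10.87 and 11.03 in GS, and 10.63, 10.63 and 10.76 in TA. GS lay above both other pools, by 0.31 over TA (SE 0.06, adjusted p = 0.0825) and 0.21 over EDL (adjusted p = 1). Its relative Kcnh1 (Eag1), chosen after its values were seen, was 9.90, 9.92 and 9.90 in EDL, 9.77, 9.76 and 9.67 in GS, and 9.93, 9.90 and 10.04 in TA. Here GS lay below both, with a GS-TA difference of -0.23 (SE 0.05, adjusted p = 0.0931).

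Kcnj3 (GIRK1), a rectifier opened by G proteins, had 11.25, 10.99 and 11.08 in EDL, 10.79, 10.80 and 10.67 in GS, and 11.11, 12.02 and 11.68 in TA. GS lay below both other pools without overlap, and EDL overlapped TA mouse 0. The GS-TA difference of -0.85 (SE 0.21) missed the threshold (adjusted p = 0.115). Interneuron markers were not even across the same arrays: the summed signal of 5 of them (log2 of the sum) was 11.84 to 12.17 in EDL, 12.62 to 13.71 in GS and 12.19 to 12.99 in TA, and none of the 5 passed the test in any comparison. Their part in the GS values was not tested.

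**Figure D4:**
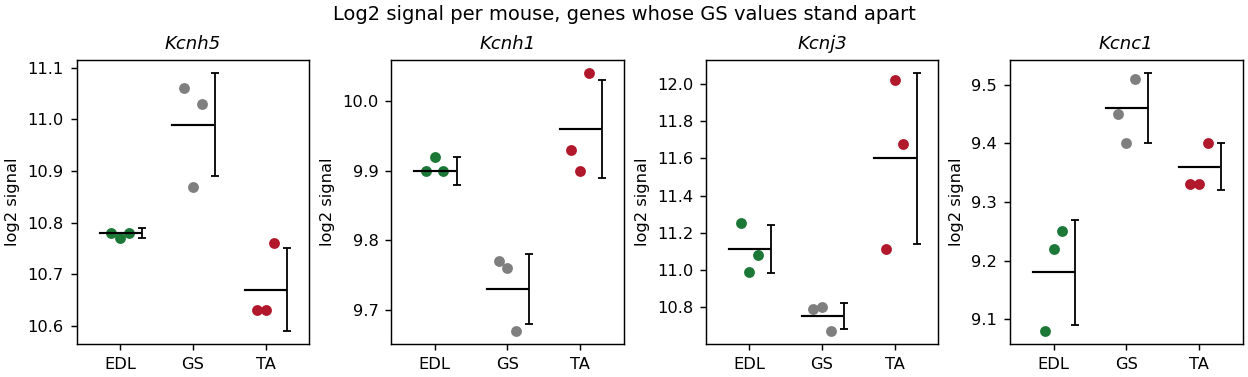
Log2 signal of Kcnh5, Kcnh1, Kcnj3 and Kcnc1 in each mouse (points) of the EDL, GS and TA pools, with the pool mean (line) and SD (bar, n = 3), on axes that differ between panels and do not start at 0. GS mice lie highest for Kcnh5 and lowest for Kcnh1 and Kcnj3, and for Kcnc1 the EDL mice lie lowest.

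Potassium channels are placed and tuned by partner proteins. Of 23 partners listed, 20 were measured and 16 lay above the controls. Between EDL and TA, 0 passed as higher and 1 as lower, the BK gamma subunit Lrrc55, which lay near the controls (5.81, 5.81 and 5.88 in EDL, 5.84, 5.85 and 5.84 in GS, 6.22, 6.01 and 6.19 in TA; difference -0.30, adjusted p = 0.0389). The share of all clusters that passed was 5.08%. At an unadjusted p under 0.05, 2 were higher (Vapb 0.28 and Amigo1 0.13) and 7 lower, beside 9.19% and 13.7% of all clusters, and the median over the 20 was -0.14. The Kv4 partner Dpp6 was 12.19, 12.30 and 12.30 in EDL, 12.25, 12.25 and 11.95 in GS, and 12.54, 12.67 and 12.73 in TA. Its TA values lay above those of both other pools, at an EDL-TA difference of -0.38 (adjusted p = 0.0657). The listed partner Dpp10, also above the controls, went the other way, at 0.34 (limma adjusted p = 0.346).

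Among proteins that hold Kv1 channels beside the node or scaffold them, the largest EDL-TA differences were negative, and none passed. Cntnap2 (Caspr2), which clusters these channels, had 12.40, 12.23 and 12.22 in EDL, 12.18, 12.22 and 12.16 in GS, and 12.43, 12.64 and 12.84 in TA (EDL-TA difference -0.35, adjusted p = 0.0981). Ank3, the ankyrin of the axon initial segment, differed by -0.25 (adjusted p = 0.09), and for both genes TA lay above EDL and GS without overlap. The adhesion protein Cntn2 differed by -0.10 (adjusted p = 0.634), and the scaffolds Dlg1, Dlg2 and Dlg4 by 0.03, -0.21 and 0.07. The listed partners Lgi1 and Adam22 were lower in EDL than in TA without overlap. They differed by -0.69 (limma adjusted p = 0.122) and -0.33 (limma adjusted p = 0.124), and Adam23 by -0.22. No partner passed in GS against TA or in EDL against GS, where 7 and 1 of the 20 had an unadjusted p under 0.05, beside 15.7% and 3.67% of all clusters.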

How the data were processed

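RNA of laser-captured MNs was hybridised to the GeneChip Mouse Transcriptome Assay 1.0, 1 array per mouse, with 3 mice per pool. The log2 signal was made by the authors before it was deposited, from probe brightness that was background-corrected, normalized and combined per cluster (sst-RMA in the methods, RMA and Transcriptome Analysis Console in the submitters' notes), and was used as deposited. Such processing can pull low values together, so differences near the negative controls may be understated, which was not measured here. The 6732 control probe sets of the array were set aside, and all 65956 other clusters were tested. Symbols come from the platform annotation. Clusters with several symbols were not members, among them 3 that carry a Kcn name.

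A linear model with a mean for each pool and a spread shared by the 9 arrays was fitted in limma 3.58.1 (R 4.3.3, eBayes), two-sided, with Benjamini-Hochberg adjustment over the 65956 clusters. The 95% intervals are for single genes. The procedure was run on simulated data with noise of the same spread in each pool and no shift of whole arrays. It therefore does not cover the lower quality of the TA arrays. Alternatives were other scalings, a spread from the compared pools alone, an unmoderated test, array weights, tests above the controls only, averaged clusters, and arrays left out.

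The members and lists were chosen with earlier results of these data known. Genes named were those that passed, the 6 largest EDL-TA differences in each direction, the 4 largest EDL-GS differences, the gene with the highest signal of each family and genes fixed by role, all above the controls, and of the marker and partner lists those that passed and up to 4 with the largest moderated t. Kcnh1, other list genes, genes named as counted or listed in a family, and genes near the controls fall outside this rule and were named after their values were seen.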

Additional observations from a re-analysis of the deposited data

How the results depend on the processing

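No paired analysis was possible because each mouse was injected in 1 muscle, and the mouse numbers of the pools have none in common. The cause of the changes below was not tested. Between EDL and TA, 3 genes passed (1 higher, 2 lower). The count was 1 (1 higher) with arrays centred on their medians, beside 6.29% of all clusters. After quantile normalization it was 7 (2 higher, 5 lower), beside 7.63%. It was 0 with the spread of the compared pools alone and 0 in the unmoderated test, where 0.00606% and 0.694% of all clusters passed. Among clusters above the negative controls, of which 32.4% passed, it was 6 of 38 (3 higher, 3 lower). With arrays centred on their negative controls, where 57.6% of all clusters passed, it was 56 (all higher). Leaving out 1 mouse gave 0 to 10. The count was 0 without EDL mouse 11, 14 or 33 (0.732%, 0.414% and 0.305% of all clusters) or GS mouse 30 (1.47%). It was 1 without GS mouse 13 (1.87%), and 2 without GS mouse 31 (2.97%) or TA mouse 1 (2.28%). It was 5 without TA mouse 0 (2.2%) and 10 without TA mouse 3 (15.9%). With array weights there were 3 (Kcna2, Kcnj10 and Kcnmb4), beside 6.07% of all clusters. Without both TA mice 0 and 1, which leaves 1 TA mouse, Kcna2 had -0.61. Over the 18 alternatives Kcna2, Kcnma1 and Kcnmb4 kept their direction in 18 each and passed in 10, 5 and 8, with adjusted p-values of 0.00186 to 0.487, 0.018 to 0.942 and 0.00753 to 0.145. Several of these leave the EDL-TA difference unchanged, so its direction could not turn there. They are the spread of the compared pools alone, the unmoderated test, clusters above the controls only, averaged clusters and a GS mouse left out. Averaging also left the values of these genes as they were, because each has 1 cluster. The 10 of Kcna2 include the fit with 1 TA mouse.

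Between GS and TA the count of 0 became 2 (Kcna2 and Kcnma1) after quantile normalization (1.19% of clusters) and 3 above the controls only (13.8%). Without TA mice 0 and 1, which leaves 1 TA mouse, the GS-TA difference of Kcna2 was -0.45. The count was 10 with negative control centring (6615 of the 65956 clusters). With 1 mouse left out it was 0 to 5 (1 without TA mouse 0, 0.252%, and 5 without TA mouse 3, 10.9%). Between EDL and GS it stayed 0 in all alternatives run. The F test count of 0 became 2 after quantile normalization (2.75% of clusters) and 1 with array weights (1.41%). It was 3 above the controls only (20.8%) and 41 with negative control centring (44.0%). With 1 mouse left out it was 0 to 7 (7 without TA mouse 3, 11.5%). The 12 trending genes became 59 with negative control centring, where 59.2% of all clusters did, and 9 to 19 with 1 mouse left out (19 without TA mouse 3, where 24.6% did, beside 20.0% with all mice). Kcne1l, at -0.01 between EDL and TA, became 0.34 (adjusted p = 0.0132 in limma) with negative control centring. Genes above the controls numbered 38, 55 at their 50th percentile and 12 at their 95th. Genes near the controls are limited by signal over background.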
